A study of Homo sapiens with 4 samples.

Results

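The insulin-like growth factor (IGF) system was examined as 10 genes in BT-20 and MDA-MB-468 cells, comprising the receptors IGF1R, INSR and IGF2R, the adaptors IRS1 and IRS2, and the binding proteins IGFBP2 to IGFBP6. These members were chosen by name, as the rows of the expression table whose Ensembl identifier maps to them, and all 10 were found among 50653 listed genes. The study depleted QPRT, an enzyme of NAD synthesis, by RNA interference to ask what changes in gene expression follow. RNA was sequenced as 4 libraries, 1 each for BT-20 with control shRNA, BT-20 with QPRT shRNA, MDA-MB-468 with control shRNA and MDA-MB-468 with QPRT shRNA (MDA-MB-468 is written MB-468 in the sample labels).

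Both are long-established lines of human triple-negative breast cancer, a class of tumor without estrogen receptor, progesterone receptor or HER2 amplification. A short hairpin RNA (shRNA) is cut by the cell into a small interfering RNA, which leads the silencing machinery to the mRNA it matches. According to the study's methods, the QPRT hairpin was delivered by a lentiviral pLKO.1-puro vector and the control hairpin by a lentiviral vector too, with puromycin selection, so the control cells were also transduced. The knockdown was measured in stably transduced cells, with 1 library per line and hairpin, so an effect of the QPRT hairpin other than through QPRT cannot be told apart from the knockdown. The labels do not say whether the libraries came from separate cultures. The p-values below rest on these libraries alone and cannot be read as measuring spread between cultures.

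IGF1 and IGF2 are secreted growth factors that activate the receptor tyrosine kinase IGF1R and, through hybrids or isoforms, the insulin receptor INSR. The activated receptors phosphorylate the adaptor proteins IRS1 and IRS2, which recruit phosphatidylinositol 3-kinase and pass the signal to AKT and mTOR, whereas IGF2R takes up IGF2 for degradation in the lysosome. The binding proteins hold IGFs in the extracellular fluid, where they can keep the ligand from the receptor or release it locally, and several of them have long been studied in breast cancer.

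Levels are given as FPKM, the fragments of a gene per length of its transcript, scaled to the depth of the library. Comparisons between genes, such as the ratios and shares below, also depend on the transcript length assigned to each gene. For most genes that length matched a mean over the annotated transcripts, whether or not they are expressed. Libraries held 10321996 to 10945948 fragments, recovered from the FPKM values and transcript lengths. QPRT itself (ENSG00000103485, chromosome 16) had 249 FPKM in BT-20 control cells, 40.5 with QPRT shRNA, 117 in MDA-MB-468 control cells and 18.3 with QPRT shRNA, so the labels of the 4 libraries fit their QPRT levels. The 5 epithelial markers EPCAM, CDH1, KRT8, KRT18 and KRT19 summed to between 5383 and 9590 FPKM in every library, while PGR, the progesterone receptor gene, was listed at 0 in all 4. ESR1, the estrogen receptor gene, had 1.04 to 5.76 FPKM, and ERBB2, which encodes HER2, had 50.7 to 128.9 FPKM. Leukocyte markers summed to at most 0.34 FPKM and 5 fibroblast markers to between 15.4 and 33.1 FPKM, mostly COL1A1, all 5 being lower with QPRT shRNA in both lines. CDH5, usually an endothelial marker, stood at 96.5 and 134.5 FPKM in BT-20 against 1.24 and 0.912 FPKM in MDA-MB-468. The other endothelial markers were low, PECAM1 with 2.78 and 3.27 FPKM in BT-20 against 1.06 and 1.28 in MDA-MB-468. VWF had 1.935 and 1.941 FPKM in BT-20 against 0.284 and 0.181 in MDA-MB-468. A list of 14 gut and plasma cell genes, chosen with earlier results of these data known, summed to 90.0 and 33.8 FPKM in the BT-20 control and QPRT libraries and to 199.9 and 35.1 FPKM in MDA-MB-468. All 14 of these genes were lower with QPRT shRNA in both lines, and the part of these and of the fibroblast markers in the results below was not tested.

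Each member was a single protein-coding gene on GRCh38 (GENCODE 29). IGF1R lies on chromosome 15 from 98648539 to 98964530 on the plus strand, INSR on chromosome 19 from 7112255 to 7294034 on the minus strand, and IGF2R on chromosome 6 from 159969099 to 160113507 on the plus strand. IRS1 lies on chromosome 2 from 226731317 to 226799759 and IRS2 on chromosome 13 from 109752698 to 109786568, both on the minus strand. Among the binding proteins, IGFBP3 lies on chromosome 7 from 45912245 to 45921874 on the minus strand, IGFBP4 on chromosome 17 from 40443461 to 40457731 on the plus strand, and IGFBP6 on chromosome 12 from 53097436 to 53102345 on the plus strand. IGFBP2 (chromosome 2, 216632828 to 216664436, plus strand) and IGFBP5 (chromosome 2, 216672105 to 216695525, minus strand) face each other tail to tail, with 7668 bases between them.

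The 3 members that stood furthest apart between the cell lines were IGFBP3, IGFBP4 and IGFBP5, and the 120 bases directly before the transcription start of each are shown because the line differences below are differences of these transcripts. The sequences are from RefSeq (GRCh38.p14), read 5′ to 3′ on the strand of the gene, at chr7:45921273-45921392 on the minus strand, chr17:40443330-40443449 on the plus strand and chr2:216695550-216695669 on the minus strand. The starts are those of RefSeq and differ from the GENCODE starts given above, and the IGFBP3 window lies inside the GENCODE span of its gene. Capitals mark GGGCGG (the GC box) and TATAAA (the TATA box), found on either strand. CCGCCC thus marks a GC box on the opposite strand.
IGFBP3: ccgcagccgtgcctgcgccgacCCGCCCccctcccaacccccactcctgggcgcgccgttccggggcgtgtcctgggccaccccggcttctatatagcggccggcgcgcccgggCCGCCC
IGFBP4: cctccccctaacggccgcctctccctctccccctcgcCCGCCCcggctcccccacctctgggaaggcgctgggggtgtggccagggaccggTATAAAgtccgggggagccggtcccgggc
IGFBP5: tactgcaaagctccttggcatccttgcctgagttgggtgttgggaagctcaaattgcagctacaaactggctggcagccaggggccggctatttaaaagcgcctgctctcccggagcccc

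Counted over the 250 bases before the start, the IGFBP3 window held 32 CpG dinucleotides and 2 GC boxes, and the IGFBP4 window held 24 CpG, 1 GC box and a TATAAA that begins 29 bases before the start. The IGFBP5 window held 8 CpG, no GC box and no exact TATAAA. Only the exact letters TATAAA were searched, so near matches in the IGFBP3 and IGFBP5 windows were not counted. A CCAAT box (CCAAT), also searched on both strands, was found in none of the 3 windows, and no matches overlapped. Among 35116 RefSeq promoter windows of the same length, 42.6% held a GC box, 10.7% a TATA box and 32% a CCAAT box, and the median window had 11 CpG. Thus the IGFBP3 and IGFBP4 windows had more CpG than 90.5% and 76.3% of promoters, and the IGFBP5 window more than 43.7%. Such matches describe the letters only, and no binding or methylation was measured.

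To compare the cell lines, limma was fitted to log2(FPKM + 1) of all 4 libraries with the cell line and the shRNA as terms. The shRNA libraries of a line then stand in for its replicates, with 1 residual degree of freedom per gene. The SE of a gene therefore came largely from the spread of other genes at a similar level, which limma shares between genes. A small p-value thus does not show that the libraries agreed closely for that gene. The fit covered 14321 genes with a mean of at least 1 FPKM, among them 9 of the 10 members. IGFBP6, with a mean of 0.493 FPKM, was not tested. At a Benjamini-Hochberg adjusted p under 0.05, 8 of the 9 tested members differed between the lines, against 55.1% of all genes tested. In bulk RNA such as this, fewer cells expressing a gene and less RNA per cell cannot be told apart. IRS1, IRS2, INSR, IGFBP3 and IGFBP4 were higher in MDA-MB-468, a direction called for 30.7% of all genes, and IGF1R, IGFBP2 and IGFBP5 were lower, a direction called for 24.4%. The median absolute log2 difference was 1.94 over the tested members and 0.61 over all genes tested.

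**Figure D1:**
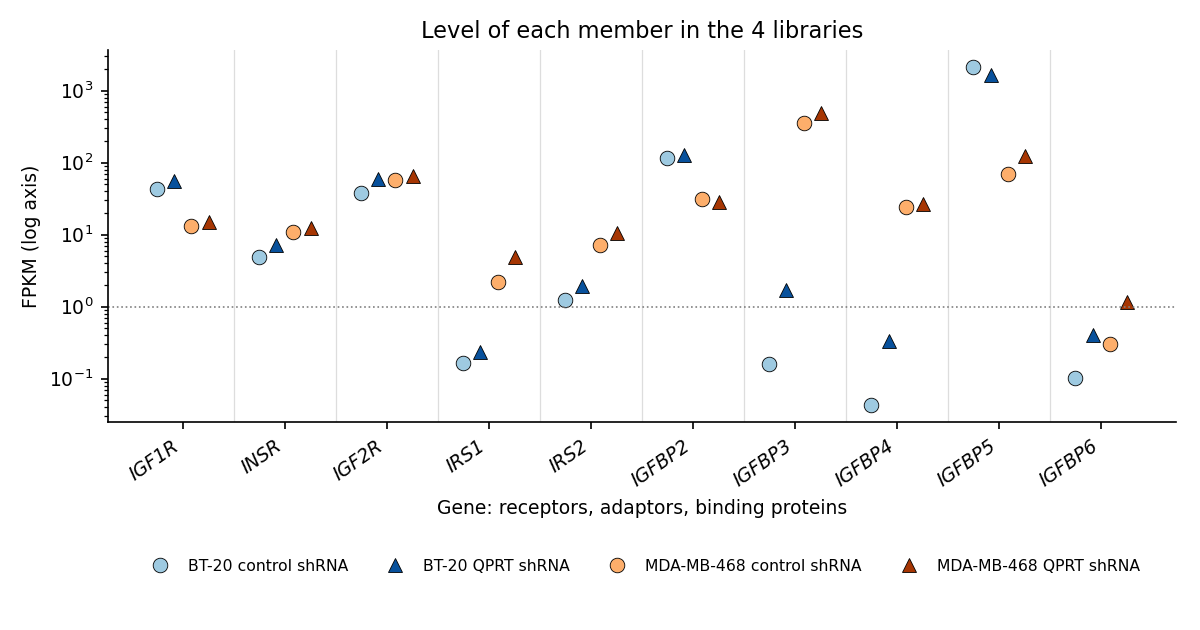
Level of each member in the 4 libraries, in FPKM on a log axis, with circles for control shRNA, triangles for QPRT shRNA, blue for BT-20 and orange for MDA-MB-468; the dotted line marks 1 FPKM. IGFBP5 ranged from 69.7 FPKM in MDA-MB-468 to 2117 in BT-20, while IGFBP3 ranged from 0.160 FPKM in BT-20 to 498 in MDA-MB-468.

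Among the receptors, IGF1R, the main signaling receptor for both IGFs, had 43.8 FPKM in the BT-20 control library and 56.5 FPKM in the BT-20 QPRT library, and 13.2 and 15.0 FPKM in MDA-MB-468. Both BT-20 libraries lay above both MDA-MB-468 libraries, and the log2 difference (MDA-MB-468 minus BT-20) was -1.75 ± 0.22 (SE; limma, adjusted p = 6.47e-14). INSR, the insulin receptor, went the other way, with 4.98 and 7.10 FPKM in BT-20 against 11 and 12.3 FPKM in MDA-MB-468. Its log2 difference was 0.86 ± 0.26 (SE; limma, adjusted p = 0.00218). This call was lost when the BT-20 control library, the MDA-MB-468 control library or the MDA-MB-468 QPRT library was left out, with log2 differences of 0.64, 0.93 and 0.79. IGF2R, which clears IGF2 and also sorts lysosomal enzymes tagged with mannose 6-phosphate, had 38.2 and 58.9 FPKM in BT-20 against 57.3 and 65.1 FPKM in MDA-MB-468. The IGF2R levels of the lines overlapped, and its log2 difference of 0.36 ± 0.21 (SE) was not called (limma, adjusted p = 0.137).

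The ratios between the 3 receptors thus differed between the lines as a description of the levels. IGF1R was the highest of the 3 in the BT-20 control library, and IGF2R was the highest in every other library. In BT-20, IGF1R exceeded INSR 8.81-fold with control shRNA and 7.96-fold with QPRT shRNA, whereas in MDA-MB-468 the ratio of the FPKM levels was 1.20 and 1.22. IGF2R stood close to IGF1R in BT-20, at 0.872 and 1.04 times its level, and at 4.33 and 4.35 times its level in MDA-MB-468. Within each line, the ratios of the control and QPRT libraries differed less than the ratios of the 2 lines did. In BT-20, IGF2R nevertheless stood below IGF1R with control shRNA and above it with QPRT shRNA.

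The adaptors were both low in BT-20. IRS1, a substrate that links both receptors to phosphatidylinositol 3-kinase, had 0.166 and 0.233 FPKM in BT-20 (9 and 13 fragments) against 2.22 and 4.95 FPKM in MDA-MB-468 (124 and 261 fragments). IRS1 was higher in MDA-MB-468 in every pairing of libraries, with a log2 difference of 1.87 ± 0.31 (SE; limma, adjusted p = 6.16e-09). Between the control libraries the ratio of library-scaled fragments was 13.4-fold, with an exact Clopper-Pearson 95% interval of 6.82 to 29.9. This interval, like those below, covers counting error only, as no molecular identifiers are mentioned and fragments need not be independent molecules. With a single library left out, IRS1 lost its call without the BT-20 control library (log2 difference 1.83) and without the BT-20 QPRT library (1.91).

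IRS2, the second adaptor, had 1.23 and 1.94 FPKM in BT-20 against 7.31 and 10.6 FPKM in MDA-MB-468. Its log2 difference was 1.94 ± 0.28 (SE; limma, adjusted p = 3.47e-11), and it kept its call with any 1 library left out. IRS2 exceeded IRS1 in all 4 libraries, 7.39-fold and 8.30-fold in BT-20 against 3.29-fold and 2.13-fold in MDA-MB-468. The summed level of both adaptors was 1.39 and 2.17 FPKM in BT-20 against 9.53 and 15.5 FPKM in MDA-MB-468.

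Binding protein transcripts differed most. IGFBP5, which is secreted and also binds extracellular matrix, had 2117 and 1645 FPKM in BT-20 against 69.7 and 123 FPKM in MDA-MB-468. With BT-20 far above MDA-MB-468, the log2 difference was -4.31 ± 0.19 (SE; limma, adjusted p = 7.42e-112). Ranked by level among the 14321 genes, IGFBP5 stood at 26 and 32 in BT-20 against 2185 and 1148 in MDA-MB-468. GENCODE places another gene on the opposite strand over 4.63% of the exonic bases of IGFBP5, and the strand setting of the counting is not given in the sources used here.

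IGFBP3, the main IGF carrier of blood plasma and a product of many epithelial cells, showed the opposite pattern. It had 0.160 and 1.71 FPKM in BT-20 (2 and 22 fragments) against 361 and 498 FPKM in MDA-MB-468 (4645 and 6043 fragments). Its log2 difference was 7.90 ± 0.22 (SE; limma, adjusted p = 5.32e-257). With no filter on low values, the same IGFBP3 difference had an adjusted p of 0.00259 (limma). In that setting the adjusted p was 0.00384 for IGFBP4, 0.00597 for IGFBP5 and 0.00699 for IGFBP2 (limma). The size of these p-values therefore depends strongly on the filter. Between the control libraries the fragment ratio was 2254-fold (95% interval 624 to 18615), and between the QPRT libraries it was 290.3-fold (192 to 464). IGFBP3 ranked 13922 and 12377 of the 14321 genes in BT-20 against 271 and 181 in MDA-MB-468.

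IGFBP4, a binding protein known mainly as an inhibitor of IGF action, followed IGFBP3. Its levels were 0.0428 and 0.333 FPKM in BT-20 (1 and 8 fragments) against 24.1 and 26.3 FPKM in MDA-MB-468 (581 and 598 fragments). Both BT-20 values were near 0, and the log2 difference was 4.47 ± 0.28 (SE; limma, adjusted p = 9.65e-57). The fragment ratio was 564-fold between the control libraries (101 to 22306) and 79.0-fold between the QPRT libraries (39.8 to 184). For genes this close to 0 in BT-20 the log2 difference depends on the value added before the logarithm, and with 0.1 in place of 1 it was 9.27 for IGFBP3, 6.67 for IGFBP4 and 3.52 for IRS1, each still called.

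IGFBP2, a binding protein with a preference for IGF2, had 115 and 130 FPKM in BT-20 against 31.5 and 28.4 FPKM in MDA-MB-468. Both BT-20 libraries were higher, with a log2 difference of -1.99 ± 0.21 (SE; limma, adjusted p = 1.40e-20). IGFBP2 and its tail-to-tail neighbor IGFBP5 were therefore both lower in MDA-MB-468. IGFBP6, which also prefers IGF2, had 0.103 and 0.401 FPKM in BT-20 against 0.30 and 1.17 FPKM in MDA-MB-468, on 1 to 11 fragments, so that no line difference was detectable at this depth. Its fragment ratio was 2.91 between the control libraries (95% interval 0.234 to 153).

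**Figure D2:**
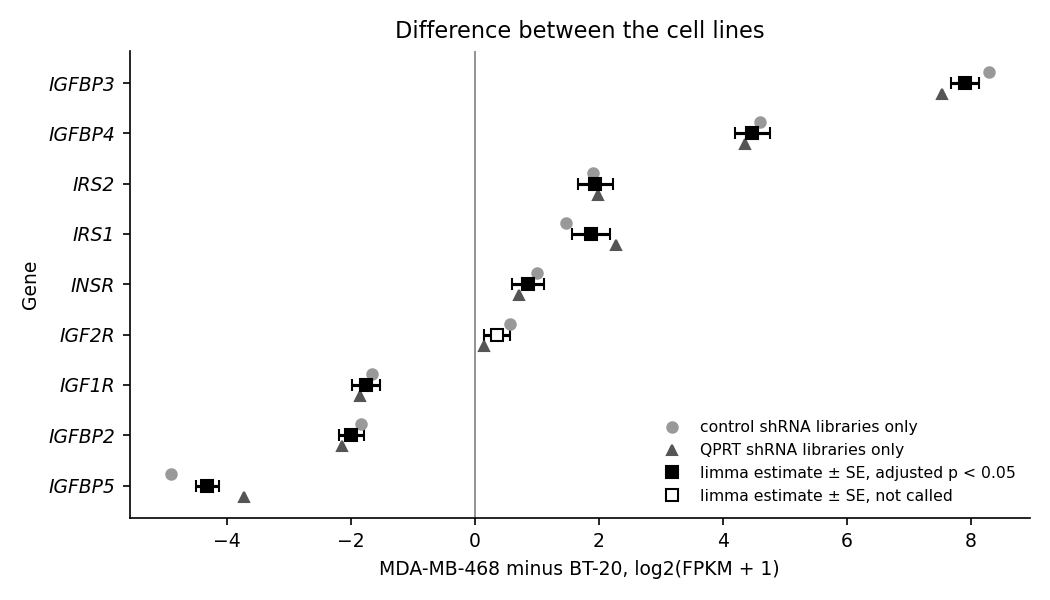
Line difference of the 9 tested members, MDA-MB-468 minus BT-20 on the log2(FPKM + 1) scale; squares with bars are the limma estimate ± SE (filled where the adjusted p was under 0.05), gray circles the control libraries alone and gray triangles the QPRT libraries alone. IGFBP3 (7.90) and IGFBP5 (-4.31) lie at the ends, and the control-only and QPRT-only differences have the same sign for every member.

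The makeup of the binding protein transcripts differed between the lines accordingly. The 5 genes summed to 2232 and 1777 FPKM in BT-20 against 486.5 and 677.2 FPKM in MDA-MB-468. IGFBP5 made up 94.8% and 92.6% of this sum in BT-20 against 14.3% and 18.2% in MDA-MB-468. IGFBP3 made up 74.2% and 73.5% of the sum in MDA-MB-468 and 0.00717% and 0.0965% of it in BT-20. IGFBP2 held a similar share in all 4 libraries, between 4.2% and 7.3%, although its level differed between the lines. IGFBP4 contributed 4.96% and 3.89% of the sum in MDA-MB-468.

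**Figure D3:**
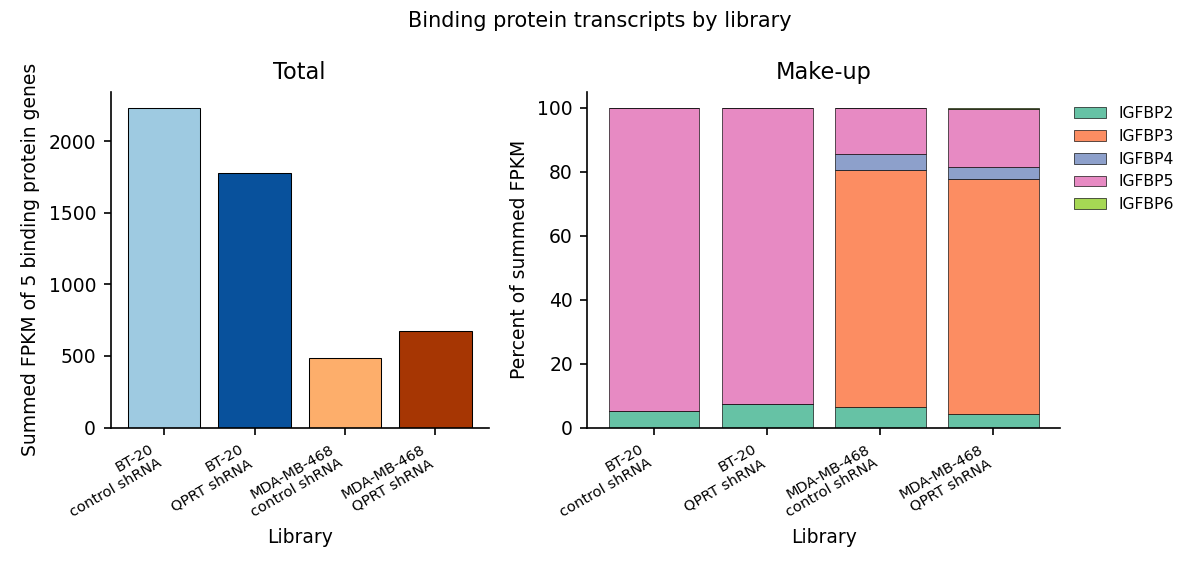
Summed FPKM of IGFBP2 to IGFBP6 in each library (left) and the percent that each gene contributes (right). BT-20 has the larger sums (2232 and 1777 FPKM), made of IGFBP5 for over 92%, and the MDA-MB-468 sums (486.5 and 677.2 FPKM) are made of IGFBP3 for over 73%.

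Next, QPRT shRNA was compared with control shRNA. Over both lines, the same limma fit called 1 of the 9 tested members, IGFBP3, at an adjusted p under 0.05, against 0.628% of all genes, and IGFBP3 was also the single member with an unadjusted p under 0.05. IGFBP3 rose by 0.84 ± 0.22 (SE) on the log2(FPKM + 1) scale (limma, adjusted p = 0.0316), and it was higher in both lines. IGF2R came next, with a log2 difference of 0.40 ± 0.21 (SE; limma, unadjusted p = 0.0587). The other 7 tested members had log2 differences between 0.02 and 0.48, and all 8 members other than IGFBP3 had an adjusted p of 1.00 (limma).

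The IGFBP3 call held with a pseudocount of 0.1 and with upper quartile or TPM scaling, and not in 7 other settings. No member was called once fold changes were freed of their trend on GC content and length, with a mean of at least 5 FPKM, with no filter, without the trend in eBayes, without the cell line term, with limma-voom on the fragments, or with a share of the MDA-MB-468 level subtracted from the BT-20 QPRT library. The log2 difference of IGFBP3 itself was 0.86 with the GC and length trend removed, 0.63 with limma-voom and 0.12 with the subtraction. In the remaining settings its values were those of the main fit, so its difference of 0.84 was the same by construction. With no filter and without the cell line term, no gene at all was called, QPRT included (limma, adjusted p = 0.650 and 1.00), so these settings say nothing about IGFBP3. The fragments behind IGFBP3 also differed widely between the lines, with 2 and 22 fragments in BT-20 against 4645 and 6043 in MDA-MB-468.

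Within a line there is 1 library per hairpin, so the differences that follow have no replicate check and no p-value. A fold of 2 or more was counted on FPKM + 1, which understates the change of low genes. On this scale 1 of the 9 tested members, IGFBP3, differed 2-fold or more in BT-20, against 1.7% of the genes tested. In MDA-MB-468, 0 of the 9 did, against 1.89%. With 0.1 added in place of 1, IGFBP4 also passed in BT-20 and IRS1 passed in MDA-MB-468.

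In BT-20, IGF1R, INSR and IGF2R were higher with QPRT shRNA by 0.36, 0.44 and 0.61 on the log2(FPKM + 1) scale. The fragment ratios were 1.29 (95% interval 1.20 to 1.38) for IGF1R, 1.43 (1.15 to 1.78) for INSR and 1.54 (1.45 to 1.63) for IGF2R. Each receptor thus exceeded counting error, although the fragments of IGF1R and IGF2R, and so their intervals, are approximate. In MDA-MB-468 the receptor differences were 0.17, 0.15 and 0.18, and the interval lay above 1 for IGF2R (1.08 to 1.19) but spanned it for IGF1R (0.993 to 1.29) and INSR (0.956 to 1.30). All 3 receptors were thus higher with QPRT shRNA in both lines as values, and the size of the BT-20 and MDA-MB-468 differences was not compared by a test.

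The adaptors were also higher with QPRT shRNA in both lines. IRS1 in MDA-MB-468 went from 124 to 261 fragments, a ratio of 2.23 (1.80 to 2.79) and a log2(FPKM + 1) difference of 0.89. The difference of IRS1 in BT-20 was 0.08, from 9 and 13 fragments, with a ratio interval of 0.556 to 3.73 that does not tell a rise from a fall. IRS2 was higher by 0.40 (BT-20) and 0.48 (MDA-MB-468) on this scale, with ratios of 1.58 (1.23 to 2.03) and 1.45 (1.31 to 1.60).

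The binding proteins differed in both directions. IGFBP5 was lower with QPRT shRNA in BT-20, where it is most abundant, with a log2 difference of -0.36 and a ratio of 0.777 (0.767 to 0.787). In MDA-MB-468 it was higher, with a log2 difference of 0.82 and a ratio of 1.77 (1.67 to 1.88). IGFBP2 was higher by 0.18 in BT-20 (ratio 1.13, 1.06 to 1.20), whereas its log2 difference in MDA-MB-468 was -0.14 (ratio 0.903, 0.796 to 1.02). Values of IGFBP3 and IGFBP4 were higher with QPRT shRNA in both lines, but on few fragments in BT-20. IGFBP3 was higher by 1.23 in BT-20 (ratio 10.7, 2.63 to 94.0) and by 0.46 in MDA-MB-468 (ratio 1.38, 1.33 to 1.43). IGFBP4 was higher by 0.35 in BT-20 (ratio 7.79, 1.04 to 346) and by 0.12 in MDA-MB-468 (ratio 1.09, 0.972 to 1.23). IGFBP6 had the same ratio of 3.89 in both lines, with intervals of 0.385 to 192 in BT-20 against 1.03 to 21.7 in MDA-MB-468.

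**Figure D4:**
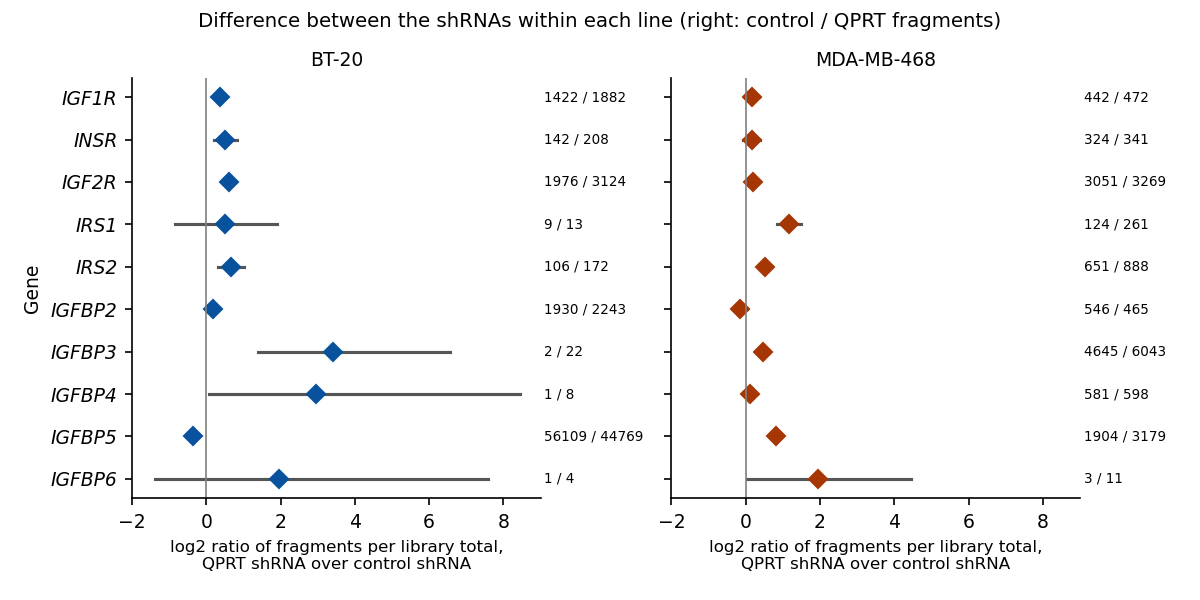
Difference between QPRT and control shRNA within each line for the 10 members, as the log2 ratio of library-scaled fragments with its exact 95% counting interval; the fragments behind each ratio stand at the right. Intervals lie above 0 for 7 members in BT-20 and for 6 in MDA-MB-468. The share of all genes with such an interval was not computed, so these counts are not known to be particular to the members. The widest intervals belong to members with fewer than 10 fragments in a library.

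Across the members, 8 of 10 were higher with QPRT shRNA in both lines, and 7 of the 9 tested, against 26.2% of all genes tested. The exceptions were IGFBP2 and IGFBP5. The median log2(FPKM + 1) difference of the tested members was 0.36 in BT-20 against 0.18 in MDA-MB-468, and that of all genes was 0.05 and 0.01. Of the 10 members, 8 had a mean transcript length above 1501 bases, the median of the genes tested. IGFBP3 (1176 bases) and IGFBP6 (875 bases) were shorter. Once the differences were corrected for GC content and length, 6 of the 9 were higher in both lines, IRS1 being lost, against 28.85% of all genes. With the MDA-MB-468 share subtracted, 6 of the 9 were, IGFBP3 being lost, against 25.17% of all genes.

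IGFBP3, IGFBP4 and IRS1 were near 0 in BT-20 and higher in MDA-MB-468, so their BT-20 values were set beside those of other genes with that pattern. There were 17 other genes with at least 50 FPKM in both MDA-MB-468 libraries and at most 0.5 FPKM in the BT-20 control library. IGFBP4 and IRS1, with MDA-MB-468 means of 25.2 and 3.585 FPKM, lay below that 50 FPKM limit. Of the members set beside these genes, IGFBP3 alone met both limits. In the BT-20 QPRT library, these genes reached 0.675% of their mean level in MDA-MB-468 at the median (interquartile range 0.490% to 0.856%), and none was listed at 0. In the BT-20 control library, 6 genes near 0 in the BT-20 QPRT library showed a median of 0.138%. In the other direction, BT-20 genes near 0 in one MDA-MB-468 library showed medians of 0.102% (13 genes, QPRT library) and 0.215% (16 genes, control library) in the other.

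In the BT-20 QPRT library, IGFBP3 stood at 0.399% of its MDA-MB-468 mean of 429.3 FPKM (95% interval 0.250% to 0.605%), within the range of 0.214% to 1.83% of the 17 genes. IGFBP4 stood at 1.32% (0.570% to 2.60%), also within that range. IRS1 stood at 6.51% (3.47% to 11.1%), above the range, and it had already been at 4.63% in the BT-20 control library. Subtracting the median share from every gene of the BT-20 QPRT library, an alternative added after the data were seen, turned the BT-20 difference of IGFBP3 from 1.23 to -0.21 on the log2(FPKM + 1) scale. The difference of IGFBP3 over both lines became 0.12 and was no longer called (limma, adjusted p = 1.00), and that of IGFBP4 in BT-20 went from 0.35 to 0.16. The difference of IRS1 in BT-20 went from 0.08 to 0.05, while all 8 line calls remained. Whether MDA-MB-468 material entered the BT-20 QPRT library was not tested.

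**Figure D5:**
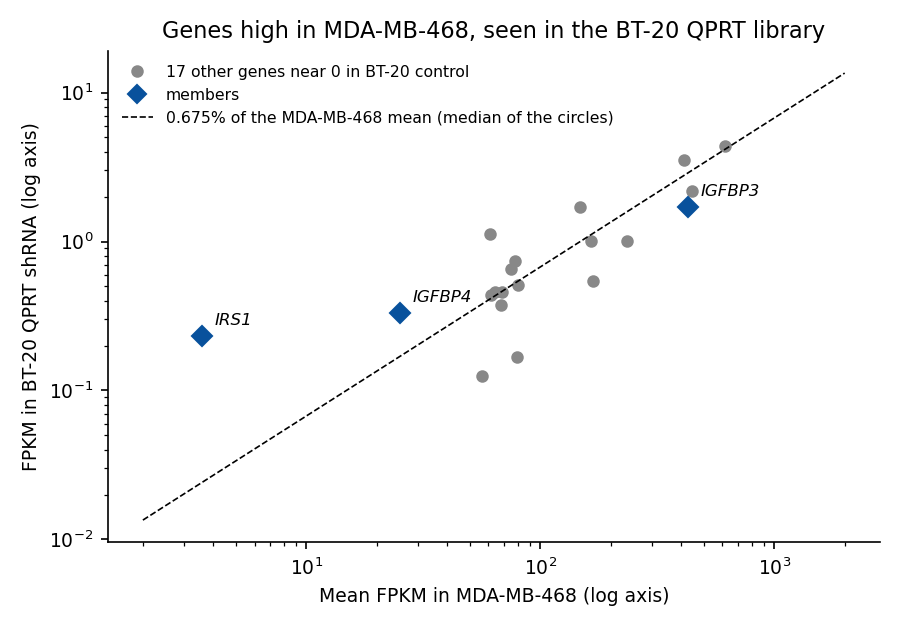
FPKM in the BT-20 QPRT library against the mean FPKM in MDA-MB-468, both on log axes, for the 17 other genes near 0 in the BT-20 control library (circles) and for IGFBP3, IGFBP4 and IRS1 (diamonds); the dashed line is 0.675% of the MDA-MB-468 mean. IGFBP3 (0.399%) lies just below the line among the circles, IGFBP4 (1.32%) above it, and IRS1 (6.51%) further above.

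The other genes of the pathway were taken from a list of 65 genes chosen by role, of which 52 had a mean of at least 1 FPKM. The ligands were listed at or near 0. INS was listed at 0 in all 4 libraries, IGF1 had 1 fragment in the MDA-MB-468 control library (0.0355 FPKM), and IGF2 had 4 fragments in the BT-20 QPRT library (0.117 FPKM). Since 75% of the exonic bases of IGF2 and 31.7% of those of INS are shared with other annotated genes, the levels of these ligands are uncertain. Between the lines, 15 of the 52 were higher and 20 lower in MDA-MB-468 (limma, adjusted p under 0.05), while 17 were not called. These counts are to be read against the shares of all genes, 30.7% higher and 24.4% lower. By role, 4 of 7 tested further adaptors were higher and 2 lower, 4 of 13 genes of the phosphatidylinositol 3-kinase and AKT branch were higher and 3 lower, and 1 of 8 genes of the mTOR branch was higher and 3 lower. Of the 6 phosphatases and SOCS proteins that act on receptor signaling, 2 were higher and 4 lower in MDA-MB-468.

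Among the adaptors that bind the activated receptors, GRB14 had 0 and 0.0707 FPKM in BT-20 against 7.83 and 7.92 in MDA-MB-468, with a log2 difference of 3.10 ± 0.30 (SE; limma, adjusted p = 3.15e-24). GRB10, like GRB14 an inhibitor of receptor signaling, had 8.39 and 3.66 FPKM in BT-20 against 41.3 and 37.9 in MDA-MB-468, a log2 difference of 2.62 ± 0.24 (SE; limma, adjusted p = 2.96e-26). Both inhibitory adaptors were thus higher in MDA-MB-468, as was SH2B2 (3.17 and 3.32 against 13.0 and 16.4 FPKM, log2 difference 1.88). SHC1, the adaptor that leads to RAS signaling, was lower, with 348 and 382 FPKM in BT-20 against 54.6 and 41.0 in MDA-MB-468, a log2 difference of -2.92 ± 0.20 (SE; limma, adjusted p = 7.51e-48).

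FURIN, a protease that cleaves the precursors of IGF1R and INSR, was also lower in MDA-MB-468, with 120 and 157 against 15.6 and 19.8 FPKM and a log2 difference of -2.89. ADAM9, a protease reported to cleave IGFBP5, had 141 and 197 FPKM in BT-20 against 52.9 and 41.3 in MDA-MB-468 (-1.81). PIK3CD, a catalytic subunit of phosphatidylinositol 3-kinase, had 5.23 and 5.51 against 0.890 and 0.598 FPKM (-1.87). These 3 genes were higher in both BT-20 libraries than in both MDA-MB-468 libraries, and each passed the test. IGFBPL1, a relative of the binding proteins, was listed at 0 in both BT-20 libraries and at 2.01 and 2.75 FPKM in MDA-MB-468. All 3 IGF2 mRNA-binding proteins were lower in MDA-MB-468, among them IGF2BP1 with 3.81 and 3.90 against 0 and 0.144 FPKM, and IGF2BP3 with 11.8 and 24.7 against 3.83 and 5.84 FPKM.

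With QPRT shRNA, limma called 0 of these 52 genes over both lines, the lowest adjusted p being 0.275 for IGF2BP3. Before adjustment, 3 genes had a limma p under 0.05 (GRB10, FOXO4 and IGF2BP3, FOXO4 being named after its values were seen), while limma-voom called 0 and had 1 at the unadjusted level. As values, GRB10 was lower in BT-20 with QPRT shRNA, at 88 against 196 fragments and a log2(FPKM + 1) difference of -1.01, and on FPKM + 1 it was the single gene of the 52 to differ 2-fold or more in either line. IGF2BP3 was higher by 1.00 in BT-20 on this scale (144 and 308 fragments) and by 0.50 in MDA-MB-468. The 52 genes had median differences of 0.13 in BT-20 against 0.03 in MDA-MB-468, and 39 and 29 of them were higher, beside 56.4% and 51.5% of all genes and medians over all genes of 0.05 and 0.01. The 4 genes of mannose 6-phosphate sorting, which make or read the tag that IGF2R also binds, had medians of 0.13 and 0.37, and none passed the test over both lines.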

How the data were processed

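Per the submitters' processing notes, reads passed through CASAVA, FastQC, MultiQC, TopHat2 2.0.12 and HTSeq 0.6.1, and the authors deposited FPKM values, 1 for each gene in each library, from TruSeq libraries sequenced on an Illumina NovaSeq instrument. The genome build, annotation and strand setting are not given in the sources used here. The count test named by the authors was not run, since no count table was used here.

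Fragments were recovered as FPKM times mean transcript length (GENCODE 29), divided by the worth of 1 fragment per library. They were whole within 0.02 for 97.6% to 97.8% of the values of single-transcript genes and 87.2% to 87.6% of all values. For IGF1R and IGF2R no length within 10% of the GENCODE mean gave whole numbers. Their fragments were rounded, so their counting intervals are approximate. For IGFBP6 the nearest length giving whole numbers was used. Depth was 10321996 to 10945948 fragments per library. A gene with few fragments therefore has a wide interval.

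Symbols matched 49414 of 50653 Ensembl identifiers, and for 27 repeated symbols 1 row was kept. Groups came from the sample labels. For both comparisons, limma 3.58.1 (R 4.3.3) with eBayes and a trend on mean expression was fitted to log2(FPKM + 1) of the 14321 genes with a mean of at least 1 FPKM, with cell line and shRNA as terms and Benjamini-Hochberg adjustment over all genes. The fit was also run on simulated data, and the outcome of that run is not reported here. The log2(FPKM + 1) scale understates the change of low genes. Within a line, a fold of 2 or more was counted, and exact Clopper-Pearson 95% intervals of fragment ratios were computed. The share of one line's genes seen in the other was described from genes with at least 50 FPKM in one line and at most 0.5 FPKM in a library of the other. Alternatives were a pseudocount of 0.1, upper quartile and TPM scaling, removal of a lowess trend on GC content and length, other filters, a 1.5-fold threshold, other limma models, leaving out each library, and subtraction of the MDA-MB-468 share from the BT-20 QPRT library, the last added after the data were seen.

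The members and gene lists were chosen with earlier results of these data known. Named were all 10 members, QPRT, and from the pathway list every gene at least 2-fold different between shRNAs in a line and the 10 with the largest line difference among those called. The ligands were named in addition, after their values were seen, and likewise the sorting genes as a group. Other steps used Python 3.11.15 with matplotlib 3.10.9, scipy 1.17.1, pandas 2.3.3, numpy 2.4.6 and statsmodels 0.14.6.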

Additional observations from a re-analysis of the deposited data

Results flagged for a closer look

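For the binding proteins IGFBP5 and IGFBP2, the difference between QPRT and control shRNA had opposite signs in the 2 cell lines. The log2(FPKM + 1) difference of IGFBP5 was -0.36 in BT-20 against 0.82 in MDA-MB-468, so that MDA-MB-468 minus BT-20 was 1.18. For IGFBP2 the differences were 0.18 and -0.14, and MDA-MB-468 minus BT-20 was -0.32. With 1 library per line and hairpin, the difference between the lines was not tested for either gene.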

How the results depend on the processing

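Between the lines, 8 members were called under pseudocount 0.1, upper quartile and TPM scaling, trend removal, share subtraction, eBayes without trend, the tested term alone and limma-voom, and 7 with no filter (INSR lost) or a mean of at least 5 FPKM (7 of 8 tested). Leaving out 1 library, with the shRNA term dropped, gave 6 to 7 members, and 4475 to 4848 genes in all against 7893. For QPRT shRNA over both lines the count of members was 1 with pseudocount 0.1, upper quartile and TPM scaling. It was 0 with the GC and length trend removed (2 genes called in all, against 90), a mean of at least 5 FPKM (45), no filter (0), share subtraction (83), eBayes without trend (105), the tested term alone (0) and limma-voom (64). Leaving out 1 library there left no residual degree of freedom, so this was not run. Members at 2-fold or more in BT-20 numbered 2 with pseudocount 0.1 (IGFBP3 and IGFBP4; 792 genes in all against 244), 2 at 1.5-fold (IGF2R and IGFBP3; 1286) and 0 with share subtraction. In MDA-MB-468 there were 1 with pseudocount 0.1 (IRS1; 756 against 271) and 2 at 1.5-fold (IGFBP5 and IRS1; 1313). The sign turned for IGFBP2 over both lines with upper quartile scaling (-0.0051), for IGFBP3 in BT-20 with the subtraction (-0.21) and for IRS1 in BT-20 with the trend removed (-0.02). For the counts that changed, the cause was not tested. The labels give no replicate numbers, and the cell line term already compares the hairpins within each line. At this depth, members with fewer than 10 fragments in a library had the widest counting intervals.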
